A study of Mus musculus with 8 samples.

Results

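The genomic sites of 2 engineered factors, NanogBiD and Sox2BiD, were compared in mouse embryonic fibroblasts (MEFs) on day 3 of reprogramming. The assay was CUT&Tag, which sequences DNA cut and tagged by a transposase, Tn5, that an antibody tethers to the protein of interest. BiD, a short stretch from the N-terminus of SS18, contacts BRG1, the motor subunit of the BAF chromatin remodelers, and was joined to the N-terminus of each factor. The antibody was against Flag. Per the study's methods, the MEFs came from mid-gestation embryos of Oct4-GFP (OG2) reporter males crossed to 129 females, and the factors were delivered with pMXs retroviral vectors, so a factor was present at the level the vector gave and in the cells the virus reached. Which other factors the same cells received is not given for these libraries. Each fusion had 1 library, with no replicate, so no difference below was tested and every interval covers counting error over peaks only. The NanogBiD list held 75769 peaks and the Sox2BiD list 120594, together 196363 of the 661009 peaks in the 8 libraries of the series. The other 6 libraries, 1 each, hold native Nanog, native Sox2, Oct4, Oct4BiD, Nr5a2 and Nr5a2BiD from MEFs at the same day and were used for reference, where native means without BiD.

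After 19 peaks off the placed chromosomes were set aside, peaks of the NanogBiD and Sox2BiD lists were merged wherever they overlapped by at least 1 bp, which gave 160283 regions. Of these, 34489 were shared, 40850 were NanogBiD only and 84944 were Sox2BiD only. Nearly every shared region was simple: 95.6% held 1 peak of each library.

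NANOG is a homeodomain protein that reads short AT-rich sites and sits near the center of the gene network of naive pluripotency. SOX2 is an HMG-box protein that binds the minor groove at sites of the type CCATTGT, bends DNA, and in pluripotent cells often binds next to OCT4. Neither gene is normally active in fibroblasts, whose enhancers are known for AP-1, TEAD and RUNX sites. Because both fusions carry the same BAF-binding domain, the comparison asks how far the DNA-binding partner sets where such a fusion is found.

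Example sequences are given at summits, the base with the most tags, of regions chosen because they hold a factor's motif. Each is reference sequence of the mm10 build on the plus strand, 50 bases to either side of a summit, with the match in capitals. The motif letters were GCCATTA for NANOG and CCATTGT for SOX, on either strand. Both hold CCATT, but no single CCATT can match both, since the next base differs. Of 511858 windows of the same length placed every 5 kb along the genome, 0.840% held the NANOG letters and 1.74% the SOX letters. Most strong regions hold no match. Among those ranked up to 5000, the NANOG letters were at 5.68% of NanogBiD only summits. The SOX letters were at 11.9% of Sox2BiD only summits of such ranks. The first 3 are the best-ranked NanogBiD only regions with a NANOG match at the summit. They lie in an intron 74.0 kb from the start of Dner, a Notch-related neuronal receptor (chr1:84549815-84549915), in an intergenic stretch 211 kb from Rnd3 (chr2:51360396-51360496), and in a coding exon 11.9 kb from the start of Mki67, the proliferation antigen Ki-67 (chr7:135698924-135699024). Their scores were 1040, 1025 and 895.0. All 3 had a native Nanog peak and none a native Sox2 peak.
NanogBiD only, Dner: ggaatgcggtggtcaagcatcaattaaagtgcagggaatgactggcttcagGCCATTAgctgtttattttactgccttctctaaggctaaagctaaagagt
NanogBiD only, Rnd3: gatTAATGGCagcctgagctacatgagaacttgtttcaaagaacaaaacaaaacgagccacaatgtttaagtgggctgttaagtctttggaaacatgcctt
NanogBiD only, Mki67: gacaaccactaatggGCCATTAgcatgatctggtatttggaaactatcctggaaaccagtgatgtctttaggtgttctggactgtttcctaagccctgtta
The next 3 are the best-ranked Sox2BiD only regions with a SOX match, in an intron 47.9 kb from the start of Nek7, a mitotic kinase (chr1:138571745-138571845), in an intergenic stretch 110 kb from Pja2, a ubiquitin ligase (chr17:64441912-64442012), and in an intron 230 kb from Sema6d, a transmembrane semaphorin (chr2:124380458-124380558). Their scores were 1455, 1441 and 1355. All 3 had a native Sox2 peak and also a native Nanog peak.
Sox2BiD only, Nek7: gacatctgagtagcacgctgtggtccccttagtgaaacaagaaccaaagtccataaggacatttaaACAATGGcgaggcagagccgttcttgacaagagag
Sox2BiD only, Pja2: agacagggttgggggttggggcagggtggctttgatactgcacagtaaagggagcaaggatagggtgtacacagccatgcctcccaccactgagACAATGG
Sox2BiD only, Sema6d: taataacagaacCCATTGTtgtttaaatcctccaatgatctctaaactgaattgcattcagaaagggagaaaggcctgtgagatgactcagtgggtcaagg
The last 3 are shared regions. The best-ranked one with a NANOG match at the NanogBiD summit lies 69.9 kb from Rxra, a retinoid receptor (chr2:27810033-27810133), and its summits were 7 bp apart. The best-ranked one with a SOX match at the Sox2BiD summit lies 22.0 kb from Cdk17, a cyclin-dependent kinase (chr10:93138298-93138398), holds 2 matches, and had its summits 505 bp apart. The last one is the best-ranked shared region whose summits lay over 100 bp apart with each factor's own letters at its own summit, among windows without an annotated untranslated region. It lies in an intron 208 kb from Angpt1, an endothelial growth factor (chr15:42469013-42469304). It is printed from 50 bases before the NanogBiD summit to 50 bases after the Sox2BiD summit, which were 191 bp apart. Of the 18049 shared regions with summits over 100 bp apart, 28 had each factor's letters at its own summit. By themselves, the NANOG letters were at 2.13% of NanogBiD summits there and the SOX letters at 6.94% of Sox2BiD summits.
Shared, NANOG letters, Rxra: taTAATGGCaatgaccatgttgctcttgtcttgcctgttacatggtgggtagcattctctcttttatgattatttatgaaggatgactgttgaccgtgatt
Shared, SOX letters, Cdk17: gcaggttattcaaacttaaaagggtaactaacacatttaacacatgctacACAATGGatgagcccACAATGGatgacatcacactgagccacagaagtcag
Shared, summits apart, Angpt1: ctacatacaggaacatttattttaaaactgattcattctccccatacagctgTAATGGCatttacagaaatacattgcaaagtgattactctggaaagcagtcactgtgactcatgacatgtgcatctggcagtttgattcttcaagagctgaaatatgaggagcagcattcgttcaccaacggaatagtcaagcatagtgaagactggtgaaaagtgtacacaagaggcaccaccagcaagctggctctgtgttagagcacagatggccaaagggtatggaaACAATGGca

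The strongest sites of NanogBiD and Sox2BiD were mostly different ones. Over all peaks, 21.5% of merged regions were shared (21.3 to 21.7, exact 95% binomial interval, as for every share below), which is 45.8% of regions with a NanogBiD peak and 28.9% of regions with a Sox2BiD peak. Peaks were then ranked by score, 10 times the negative log10 of the peak caller's p-value. With the 20000 best of each list, 3993 of 36006 merged regions were shared, or 11.1% (10.8 to 11.4). With the best 5000 the share was 5.45%, and with the best 1000 it was 2.35% (1.73 to 3.13), 46 regions. The 20000th peak had a score of 244 in NanogBiD and 369 in Sox2BiD, so equal ranks are not equal scores.

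The same ladder in other pairs of libraries gives the scale. NanogBiD and native Nanog shared 30.7% of merged regions at the best 1000 and 50.5% at the best 20000, and Sox2BiD and native Sox2 shared 25.9% and 41.8%. The pair without BiD, native Nanog and native Sox2, shared 13.1% (12.7 to 13.4) at 20000 peaks, against 11.1% for the fusions, but over all peaks the order turned, with 19.7% against 21.5%. With the other fusions, NanogBiD shared 12.1% (11.8 to 12.4) for Oct4BiD and 12.6% (12.2 to 12.9) for Nr5a2BiD. Sox2BiD shared 5.67% (5.44 to 5.91) with Oct4BiD and 6.07% (5.83 to 6.32) with Nr5a2BiD. Over all peaks these were 18.5% and 17.8% for NanogBiD, and 14.3% and 13.6% for Sox2BiD. These pairs share libraries and are listed side by side only.

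**Figure D1:**
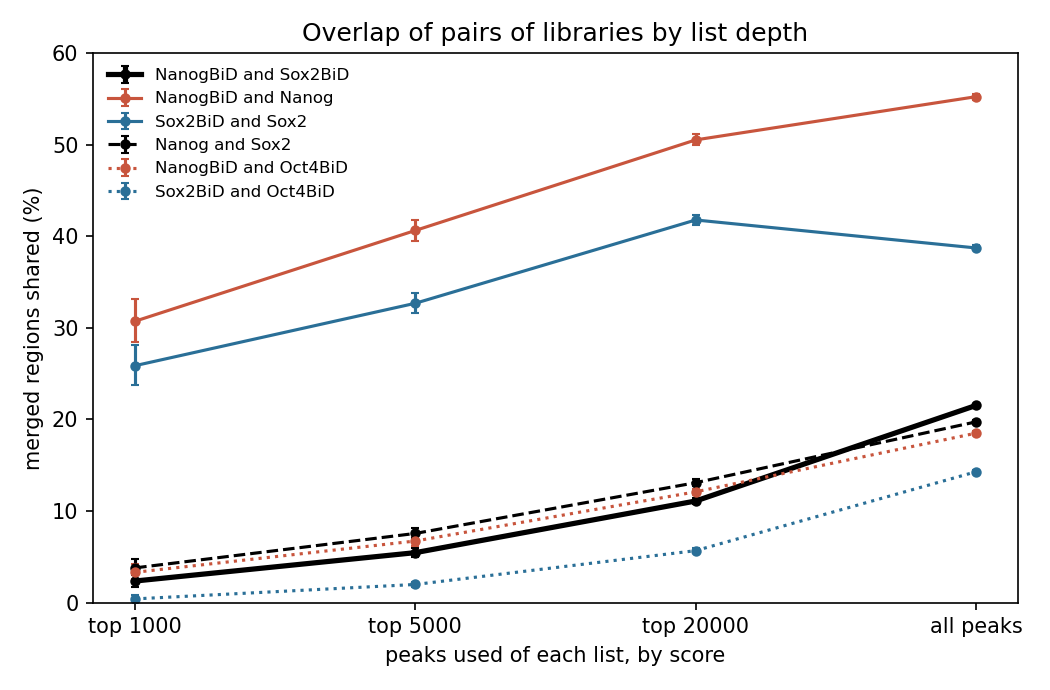
The share of merged regions held by both libraries of a pair (vertical axis, percent) against the number of peaks used from each list (horizontal axis), with exact 95% binomial intervals as bars. NanogBiD and Sox2BiD (thick line) rose from 2.35% at the best 1000 peaks to 21.5% over all peaks, next to native Nanog with native Sox2 and far under both pairs of a fusion with its own native factor.

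A site missing from the other list's best peaks was often present further down. Of the 1000 best NanogBiD peaks, 77.7% overlapped a Sox2BiD peak of some rank, and the median rank of that peak was 19145. Among the 20000 best NanogBiD peaks, 44.8% had only a Sox2BiD peak below that list's best 20000 and 35.2% had none. In the other direction, 50.1% of the 1000 best Sox2BiD peaks overlapped a NanogBiD peak (median rank 15480), and 59.0% of the 20000 best had none. The share found fell with rank in both lists, to 29.99% of the NanogBiD peaks ranked below 60000 and 20.2% of the Sox2BiD peaks ranked below 100000. The Sox2BiD list is the longer one, and the part of its length in these shares was not tested. Across the 34489 shared regions the scores of the best peaks had a Spearman rank correlation of 0.21, a description across regions that share 2 libraries. It was 0.39 over the 10874 shared regions at promoters and 0.16 over the 23615 others.

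The shared regions with the best ranks in both lists lay near the genes Npl, Zfp608, Kirrel3, Slc4a3, Slc27a6, Scd3, Rgs6 and Tbl2. The first (chr1:153571662-153574051, intergenic), 22.4 kb from Npl, a sialic acid lyase, had 79 tags at the summit in each library and scores of 1089 in NanogBiD and 1350 in Sox2BiD, and all 6 other libraries had a peak there too. Those near Kirrel3, a cell adhesion gene, Slc27a6, a fatty acid transporter, and Tbl2 also had peaks in all 6. At Slc4a3, an anion exchanger, and Scd3, a fatty acid desaturase, 2 of the 6 had one. The only one of the 8 within 2 kb of its gene's start was at Tbl2, 338 bp away.

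The best NanogBiD only regions lay near Col12a1, Sema3c, Nr2f1, Aplp2, Slc35f1, Emcn, Ebf1 and Eya4, with scores from 1044 to 1335. The first was intergenic, 78.4 kb from Col12a1 (chr9:79534008-79535888). Col12a1 encodes a fibril-associated collagen, Sema3c a secreted semaphorin, and Nr2f1, Ebf1 and Eya4 transcription regulators. The region named for Nr2f1 is 1244 kb from it, so the nearest start is a label and not an assignment. All 8 had a native Nanog peak and none a native Sox2 peak. The best Sox2BiD only regions lay near Zfp608, Fat4, Nek7, Pja2, Cfap161, Sema6d, Prep and Tmed10, with scores from 1348 to 1493, and all 8 had a native Sox2 peak. Those near Nek7, Pja2 and Sema6d also had a native Nanog peak. The one for Fat4, a giant cadherin of planar polarity, was intergenic and 329 kb away (chr3:39219580-39221456). Zfp608 thus stood beside a shared and a Sox2BiD only region, each over 200 kb from its start.

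The native libraries, which had no part in the classes, divided along the same line. Native Nanog had a peak in 58.2% of NanogBiD only regions (57.7 to 58.6) and in 7.93% of Sox2BiD only regions (7.75 to 8.11). Native Sox2 had one in 36.9% of Sox2BiD only regions (36.6 to 37.2) and in 2.62% of NanogBiD only regions (2.47 to 2.78). Regions with a Sox2BiD peak are left out of the NanogBiD only class by its definition, and this alone lowers the share with native Sox2 there, as the reverse does for native Nanog. Among peaks of the best 20000 with no peak of any rank in the other fusion, the factor's own native library had a peak in 89.3% of 7048 NanogBiD only regions and 83.6% of 11800 Sox2BiD only regions. At lower ranks these shares were 51.7% and 29.4%.

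Over all peaks, shared regions leaned to the Nanog side. Of them, 48.1% had a peak of both native libraries, 36.4% of native Nanog but not native Sox2, 5.29% of native Sox2 but not native Nanog, and 10.2% of neither. The native Nanog list held more peaks than the native Sox2 list, 73465 against 58162. The factors from which neither fusion was built also had peaks in a larger share of shared regions. Oct4BiD had a peak in 50.5% of shared regions, 23.2% of NanogBiD only regions and 11.8% of Sox2BiD only regions, and native Oct4 in 38.4%, 13.5% and 6.69%. For native Nr5a2 the shares were 47.7%, 22.7% and 13.4%, and for Nr5a2BiD 45.0%, 19.1% and 10.2%. All 6 other libraries had a peak in 12.7% of shared regions (4364 regions), against 0.159% of NanogBiD only and 0.135% of Sox2BiD only regions. None of them had one in 4.79%, 27.5% and 45.8%. Shared regions also had higher scores, with a median of 187 in NanogBiD against 111 in NanogBiD only regions, and 200 in Sox2BiD against 135 in Sox2BiD only regions. The part of these scores in the overlap with other libraries was not tested.

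**Figure D2:**
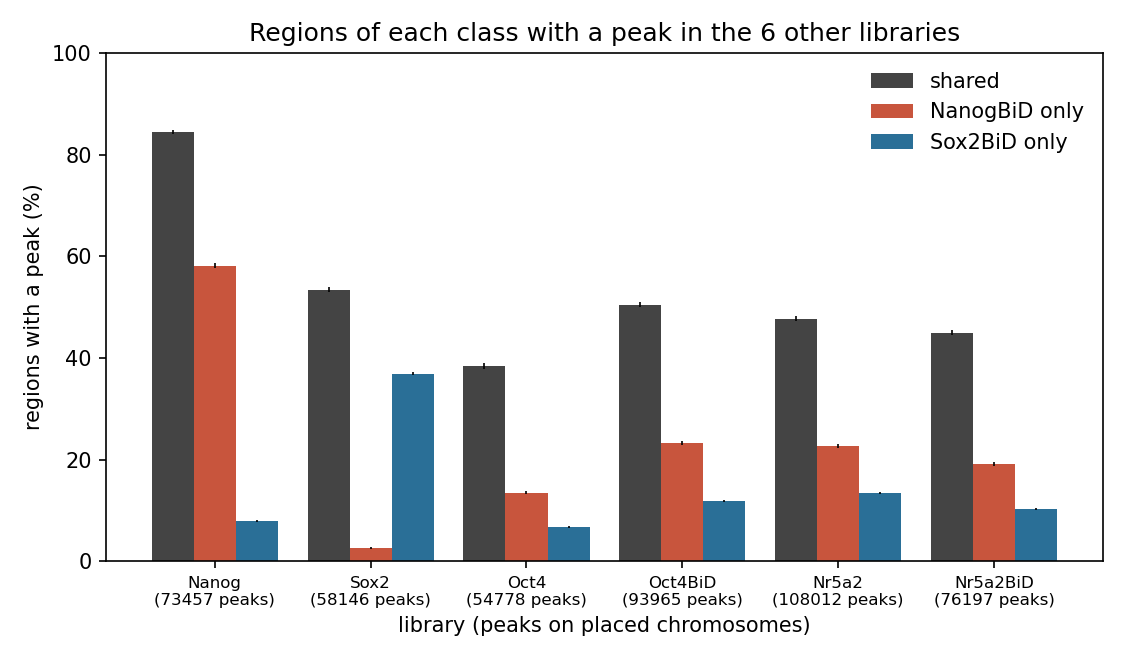
The share of regions of each class (bars, percent, with exact 95% binomial intervals) that overlap a peak of each of the 6 other libraries, whose peak numbers are under their names. Shared regions stand highest in every library, NanogBiD only regions reach 58.2% in native Nanog, and Sox2BiD only regions 36.9% in native Sox2.

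Over all peaks, promoters set shared regions apart from both other classes. A region was at a promoter when its summit (in shared regions the NanogBiD summit) was at most 2 kb away from a transcription start site of the annotation. This held for 31.5% of shared regions (31.0 to 32.0), 15.9% of NanogBiD only regions (15.6 to 16.3) and 11.4% of Sox2BiD only regions (11.2 to 11.6). Positions placed every 5 kb along the genome gave 11.1%, close to the Sox2BiD only share. The contrast was sharpest within 500 bp of a start, with 22.9% of shared, 7.23% of NanogBiD only and 3.45% of Sox2BiD only regions against 3.28% of positions. Beyond 500 bp and up to 2 kb, the classes held 8.66%, 8.71% and 7.95%. The median distance to a start was 7.54 kb, 12.2 kb and 14.4 kb, against 16.6 kb for positions. Summits lay in introns in 47.0%, 51.5% and 50.8% of regions, against 42.2% of positions.

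**Figure D3:**
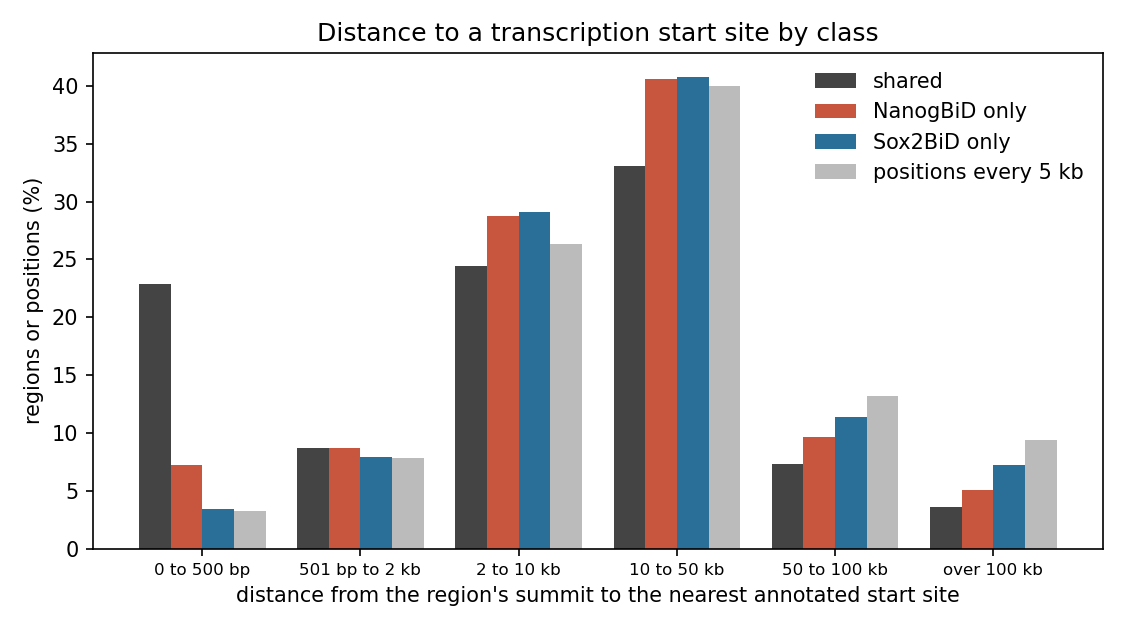
The share of regions of each class, and of positions every 5 kb along the genome, in bins of distance from the summit to the nearest annotated transcription start site. The first bin, up to 500 bp, holds 22.9% of shared regions against 7.23% of NanogBiD only and 3.45% of Sox2BiD only regions, and the classes lie between 7.95% and 8.71% in the next bin, up to 2 kb.

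The NanogBiD and Sox2BiD sides differed within the best 20000 as well. There, 27.3% (26.6 to 28.0) of regions with only a NanogBiD peak were at promoters, against 11.9% (11.4 to 12.4) of those with only a Sox2BiD peak. For shared regions it was 32.5% (31.1 to 34.0), so the NanogBiD side was closer to them than over all peaks. The NanogBiD value was a mixture: it was 38.9% in the 8959 regions with a lower-ranked Sox2BiD peak and 12.6% in the 7048 without any. The same split of the Sox2BiD side gave 17.6% in 4206 regions and 9.79% in 11800. Base composition ran in the same order as promoters. The median GC content within 50 bases of the summit was 46.5% at NanogBiD summits and 45.5% at Sox2BiD summits of shared regions, 44.6% in NanogBiD only and 41.6% in Sox2BiD only regions. At least 4 CpG dinucleotides were present in 23.0%, 20.9%, 8.38% and 2.503% of these windows. Away from promoters the medians were 44.6%, 43.6%, 43.6% and 41.6%. The part of base composition in the classes was not tested.

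Where both fusions shared a region, their summits lay further apart than those of 1 factor in its fused and native form. The median distance between the NanogBiD and Sox2BiD summits was 110 bp (quartiles 39 and 322 bp, n = 34489), and 47.7% (47.1 to 48.2) were within 100 bp. NanogBiD and native Nanog had a median of 48 bp with 73.0% within 100 bp, and Sox2BiD and native Sox2 a median of 40 bp with 77.3%. Native Nanog and native Sox2 lay between, with 82 bp and 56.03%. NanogBiD and Oct4BiD were 116 bp apart and Sox2BiD and Oct4BiD 161 bp.

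**Figure D4:**
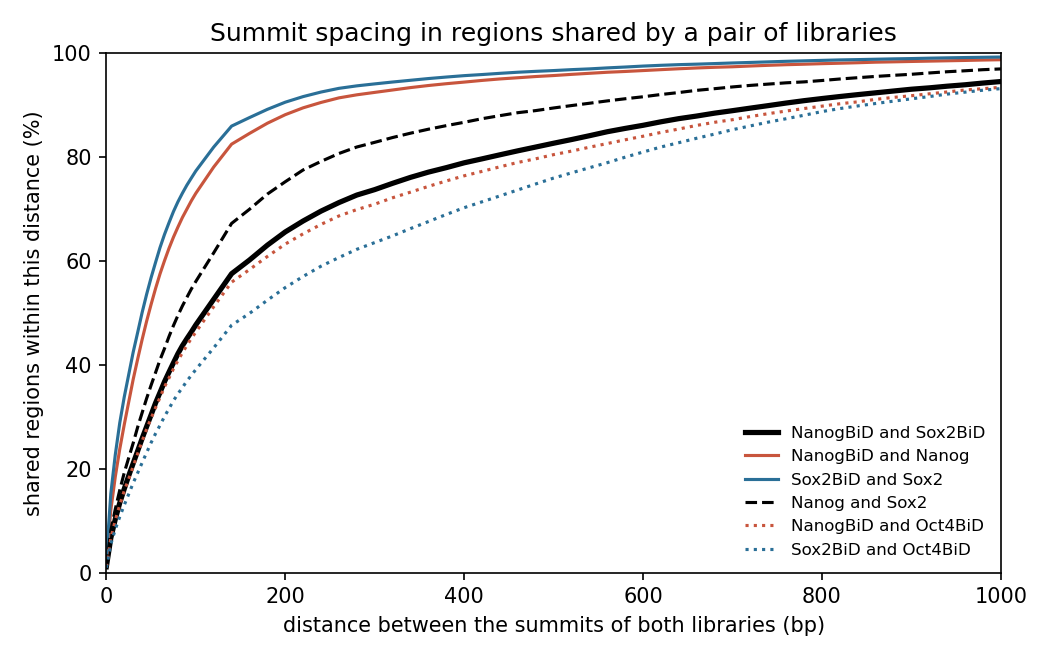
The share of regions shared by a pair of libraries (vertical axis, percent) whose summits lie within the distance on the horizontal axis (bp). At 100 bp the curve of NanogBiD and Sox2BiD stands at 47.7%, under those of each fusion with its own native factor (73.0% and 77.3%) and above that of Sox2BiD and Oct4BiD (39.1%).

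The spacing of NanogBiD and Sox2BiD summits varied with the kind of region. It was 94 bp at promoters and 116 bp elsewhere, 80 bp in regions with a peak of all 6 other libraries and 130 bp in those with none. It grew with the width of the merged region, from a median of 63 bp up to 1000 bp wide to 293 bp above 2000 bp. In the best 20000 it was 123 bp, so it was not smaller at stronger sites. At the 9336 shared regions within 2 kb of a protein-coding start, the median summit lay 54 bp upstream of the start in NanogBiD and 73 bp upstream in Sox2BiD. The Sox2BiD summit was the more upstream of the 2 in 50.6% of these regions and the more downstream in 48.0%.

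The letters at the summits followed the factor in the fusion. A match was counted within 50 bp of the summit, and enrichment is its share over the mean share of the same windows moved 500 bp to either side. In NanogBiD only regions the NANOG letters were at 3.13% of summits, a 3.85-fold enrichment (3.51 to 4.23), and the SOX letters at 0.984%, or 0.825-fold (0.734 to 0.926). In Sox2BiD only regions the SOX letters were at 9.93% of summits, 7.03-fold (6.72 to 7.35), and the NANOG letters at 1.06%, 1.24-fold (1.14 to 1.34). On the log2 scale the NANOG enrichment was 1.64 higher in NanogBiD only regions (1.46 to 1.82), and the SOX enrichment 3.09 higher in Sox2BiD only regions (2.91 to 3.27). Each class leaves out regions with a peak of the other fusion, which can by itself lower the other factor's letters there. The size of that part was not tested. Both kinds of match were densest near the summit. NANOG matches fell from 13.6 per 1000 NanogBiD only summits within 20 bp to 4.46 at 180 to 200 bp, and SOX matches from 44.3 per 1000 Sox2BiD only summits to 8.21, while SOX matches around NanogBiD only summits were flat (4.14 and 4.94). The best NanogBiD only regions (rank up to 5000) held the NANOG letters most often, at 5.68% of 1390 summits, 6.08-fold (3.90 to 9.47).

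Inside shared regions, each factor's letters were also the more enriched at its own summit. Over all of them, NANOG was enriched 2.37-fold at NanogBiD summits and 1.28-fold (1.12 to 1.46) at Sox2BiD summits. SOX was enriched 1.49-fold (1.35 to 1.64) at NanogBiD summits and 4.81-fold (4.43 to 5.22) at Sox2BiD summits. Where the summits were over 100 bp apart (18049 regions), the NANOG letters were enriched 2.77-fold at the NanogBiD summit and 0.846-fold (0.693 to 1.03) at the Sox2BiD summit. The SOX letters were at 0.650-fold (0.550 to 0.768) and 5.87-fold (5.26 to 6.55). On the log2 scale, NanogBiD summits were 1.71 above Sox2BiD summits for NANOG (1.35 to 2.08) and -3.17 for SOX (-3.46 to -2.89), values close to those between the single-library classes. Choosing summits over 100 bp apart keeps the other factor's summit out of each window and can place it in a flank. These values are therefore partly set by that choice. Where the summits were within 100 bp (16440 regions), the windows largely overlap and both letters were enriched at both summits, NANOG 1.963-fold and 1.84-fold, SOX 2.72-fold and 3.59-fold. Of all 34489 shared regions, 42 (0.122%) had NANOG at the NanogBiD summit with SOX at the Sox2BiD summit. The first alone was in 608, the second alone in 1881, and neither in 92.7%. By itself, NANOG was at 1.88% of these NanogBiD summits and SOX at 5.58% of these Sox2BiD summits. Whether the letters met more or less often than such shares give was not tested. Short exact letters miss most variants of a site, so a region without a match is not a region without a site.

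**Figure D5:**
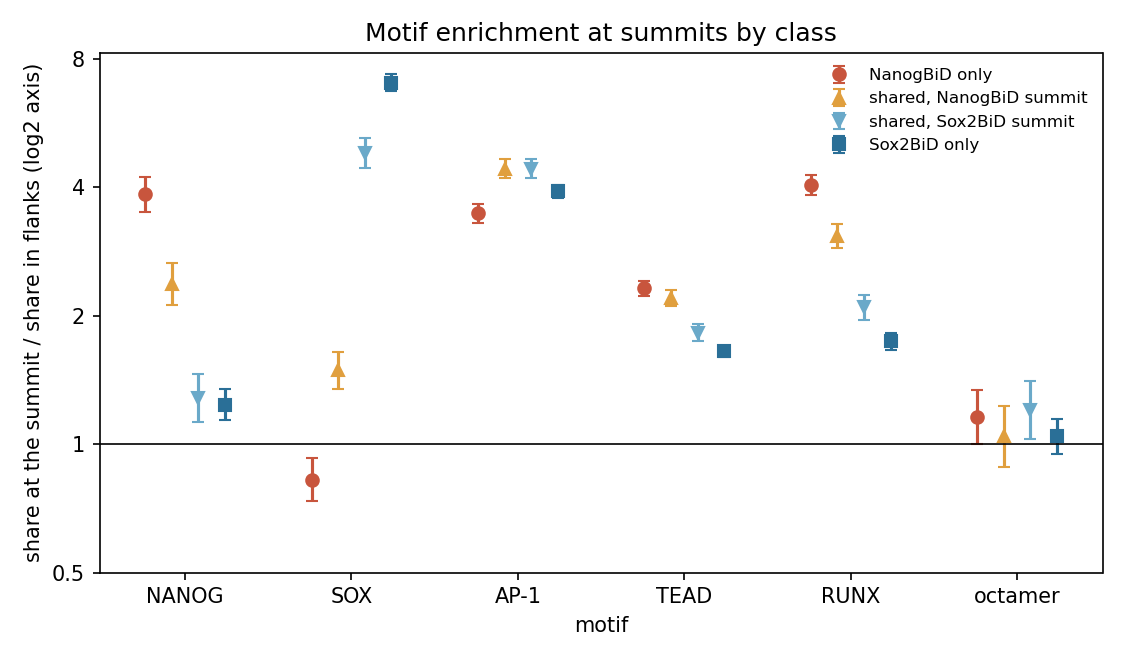
Enrichment of 6 motifs at summits over their flanks (vertical log2 axis, points with 95% intervals from the counts of matches) for NanogBiD only regions, Sox2BiD only regions and both summits of shared regions. NANOG and SOX order the classes in opposite directions, AP-1 lies between 3.47-fold and 4.42-fold in all of them, and the octamer between 1.04-fold and 1.20-fold.

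Motifs of fibroblast enhancers were found on both sides, but not equally. The AP-1 letters TGANTCA (2.98% of genome windows), bound by FOS and JUN proteins, were at 9.90% of NanogBiD only summits (3.47-fold) and 11.8% of Sox2BiD only summits (3.91-fold), and in shared regions at 13.2% and 13.9% of summits, 4.42-fold in both. Where shared summits were within 100 bp, AP-1 reached 6.28-fold at NanogBiD and 6.58-fold at Sox2BiD summits, against 2.99-fold and 2.96-fold where they were further apart. The RUNX letters AACCACA (2.35% of windows) were at 8.92% of NanogBiD only summits, 4.05-fold (3.83 to 4.28), and at 4.05% of Sox2BiD only summits, 1.74-fold (1.66 to 1.82), 1.22 apart on the log2 scale (1.11 to 1.32). In shared regions with summits over 100 bp apart RUNX was still 1.12 higher at the NanogBiD summit (0.93 to 1.31). TEAD, CATTCC (5.50% of windows), read by the partners of YAP, was enriched 2.32-fold in NanogBiD only and 1.65-fold in Sox2BiD only regions, 0.49 apart (0.42 to 0.57). CATTCC, SOX and NANOG letters all hold CATT, and no single CATT can match more than 1 of them. The OCT4 octamer ATGCAAAT (0.852% of windows) was at 0.698% of NanogBiD only summits and 0.764% of Sox2BiD only summits, below the genome windows. Over the flanks this was 1.159-fold (1.001 to 1.34) and 1.04-fold (0.95 to 1.15), so its direction depends on the background. The joint OCT4-SOX2 motif (0.00762% of windows), which overlaps the octamer, were at 39 of 84944 Sox2BiD only summits, 5.20-fold (2.87 to 9.43), and at 4 of 40850 NanogBiD only summits.

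The letters were enriched both with and without a native peak. NANOG was enriched 3.44-fold in NanogBiD only regions with a native Nanog peak and 4.39-fold in those without. SOX was enriched 5.98-fold in Sox2BiD only regions with a native Sox2 peak and 7.68-fold in those without. AP-1 went the other way on the NanogBiD side, with 3.98-fold (3.74 to 4.24) with a native peak and 2.65-fold (2.43 to 2.90) without, while on the Sox2BiD side it was 4.06-fold (3.85 to 4.29) with a native Sox2 peak and 3.82-fold (3.66 to 3.98) without.

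By gene, the classes were broad. Of 21938 protein-coding genes, 55.3% had at least 1 shared region with its summit within 10 kb of a start site, 42.3% a NanogBiD only region and 58.1% a Sox2BiD only region, and these percentages are the background for each list below. Within 2 kb the percentages were 42.4%, 19.4% and 22.8%. There, 62.2% of genes had any region: 9296 a shared one, 1932 only NanogBiD only regions, 1693 only Sox2BiD only regions, and 734 both of the single-library kinds. A peak near a start does not measure expression. Genes named from the lists for having regions of mainly 1 class were chosen after their values were seen.

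Genes of the pluripotency network held similar numbers of NanogBiD only and Sox2BiD only regions within 10 kb, but not within 50 kb. Of 32 genes, 12 had a shared region, 15 a NanogBiD only and 17 a Sox2BiD only region within 10 kb, and 6 had none. They held 23 NanogBiD only and 22 Sox2BiD only regions, 0.957 of the second for each of the first, against 1.79 over all genes. Within 50 kb the numbers were 66 and 87 (1.32, against 1.88 over all genes), and within 2 kb 6 and 3. Esrrb, a nuclear receptor of naive pluripotency, had 4 NanogBiD only regions (best score 495) and 1 Sox2BiD only region (89.2). Lefty1, a Nodal inhibitor, had 1 NanogBiD only and 2 shared regions and no Sox2BiD only region. Sall4, a zinc finger factor, and Fgf4, a growth factor whose enhancer is a classic OCT4-SOX2 target, had 2 Sox2BiD only regions each and no other. The best score was 440 at Sall4 but 99.4 at Fgf4, under the Sox2BiD list median of 150. Whether a region at Fgf4 is that enhancer was not tested. Klf5, Zscan10 and Utf1 had shared regions alone, 3, 2 and 1. The best Sox2BiD score was 429 at Klf5, but 141 at Zscan10 and 70.8 at Utf1, both under the Sox2BiD list median of 150. Tfcp2l1, Nr0b1, Nr5a2, Dppa3, Dppa4 and Tcl1 had none of any class.

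Neural genes and the SOX family held more Sox2BiD only than NanogBiD only regions, as genes at large did. Of 30 neural developmental genes, 10 had a shared, 10 a NanogBiD only and 19 a Sox2BiD only region, with 14 NanogBiD only and 28 Sox2BiD only regions in all. Zic1 and Lhx2, regulators of neural patterning, had 3 Sox2BiD only regions each and no others, while Irx3 and Pou3f1 had a NanogBiD only region alone. Some of these peaks were weak. The best Zic1 score was 113, under the Sox2BiD list median of 150, and the Pou3f1 score was 50.9, next to the list minimum of 50. Of 19 SOX genes, 7 had a shared, 8 a NanogBiD only and 12 a Sox2BiD only region. Sox6 had 7 Sox2BiD only, 3 NanogBiD only and 4 shared regions, and Sox21 had 2 Sox2BiD only regions, the better with a score of 733. Of 22 trophoblast and endoderm genes, the counts were 6, 8 and 11, and the trophoblast factor Elf5 had 5 Sox2BiD only regions and no others.

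Most genes of the fibroblast state had a shared region, as did most ribosomal protein and cell cycle genes. Of 19 AP-1 and related genes, 17 had a shared region, 11 a NanogBiD only and 12 a Sox2BiD only region. Shared regions were 47.7% of their regions against 32.0% over all genes. This share was 41.9% at TEAD and Hippo genes, 30.2% at fibroblast matrix genes and 34.2% at mesenchymal regulators. At ribosomal protein genes it was 43.8% and at cell cycle genes 43.0%. Bach2, a repressor at AP-1-like sites, had 6 shared, 3 NanogBiD only and 4 Sox2BiD only regions, and its best scores over all of them were 545 in NanogBiD and 1142 in Sox2BiD. Bach1 had 2 shared regions alone (521 and 1136). Of 21 TEAD and Hippo genes, 19 had a shared, 16 a NanogBiD only and 17 a Sox2BiD only region. Yap1, the Hippo effector, had 3 shared and 2 regions of each other class, and its best scores over all of them were 747 in NanogBiD and 157 in Sox2BiD. Of 26 fibroblast matrix genes, 22 had a shared region, and the counts for the NanogBiD only and Sox2BiD only classes were also 22, though not of the same genes. Of 20 mesenchymal regulators the counts were 14, 12 and 16. Of 22 epithelial genes the counts were 12, 13 and 16, with 9 Sox2BiD only and no NanogBiD only regions at Tjp1, a tight junction scaffold, and 1 Sox2BiD only region at Cdh1 (E-cadherin).

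Genes for the machinery that BiD contacts were above the background in all 3 classes. This was not particular to them, since the ribosomal protein, cell cycle, WNT and TGF-beta lists below were too. Of 27 BAF subunit genes, 23 had a shared, 15 a NanogBiD only and 26 a Sox2BiD only region, with 58 Sox2BiD only against 23 NanogBiD only regions (2.52 for each, against 1.79 over all genes). Smarca4, which encodes BRG1, had 3 Sox2BiD only, 1 shared and no NanogBiD only regions. In housekeeping lists, 35 of 37 ribosomal protein genes had a shared, 20 a NanogBiD only and 26 a Sox2BiD only region. Of 29 cell cycle genes the counts were 26, 16 and 22. Of 35 WNT pathway genes, 22 had a shared, 22 a NanogBiD only and 25 a Sox2BiD only region. Of 34 TGF-beta, Nodal and BMP genes, the counts were 29, 24 and 25. As a check of the labeled cell type, 11 of 12 fibroblast marker genes had a shared region, against 2 of 8 lymphoid, 2 of 6 hepatocyte and 3 of 6 neuronal marker genes. The single-library classes separated these lists less. NanogBiD only regions were at 9, 4, 2 and 3 of these genes, and Sox2BiD only regions at 11, 5, 2 and 4. A region of any class was at 12, 7, 3 and 6 of them.

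Within 50 kb, 76.1% of genes had a shared, 74.9% a NanogBiD only and 87.2% a Sox2BiD only region. There, 65.5% of genes had more Sox2BiD only than NanogBiD only regions and 14.4% the reverse. The excess of NanogBiD only regions was largest at Sorcs2, a sorting receptor (14 against 3), Ccbe1, a lymphatic growth gene (18 against 8), Esrrb (10 against 1), the neuronal RNA-binding gene Elavl2 (11 against 3), the zinc receptor gene Gpr39 (12 against 4) and Pxylp1 (12 against 4). Genes with a large excess of Sox2BiD only regions were Kalrn (41 against 16), the cAMP phosphodiesterase gene Pde4d (63 against 39), Pdlim5 (25 against 1), the zinc finger repressor gene Zbtb20 (37 against 14) and Dmd, the dystrophin gene (24 against 2). Counts cover all annotated start sites of a gene. Esrrb had no shared region within 50 kb, and Pdlim5 had 15.

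At the genes of the tagged factors, tags on exons can come from the delivered vector. NanogBiD had 2 summits on Nanog exons, with up to 47 tags, where Sox2BiD had none, and Sox2BiD had 1 on Sox2, with 53 tags, where NanogBiD had none. Vector and chromosome cannot be told apart there. Within 10 kb, Nanog had 1 shared and 2 NanogBiD only regions, Sox2 had 1 NanogBiD only and 2 Sox2BiD only regions, and Pou5f1 (Oct4) had 1 shared, 2 NanogBiD only and 1 Sox2BiD only. Nr5a2 had none.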

How the data were processed

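Peak and summit lists of 8 CUT&Tag libraries of day 3 MEFs were used, 1 per group by title. From the methods, reads had been trimmed (Trim Galore 0.6.4), aligned to mm10 (bowtie2 2.4.5) and cleared of repetitive, poorly mapped and mitochondrial reads (SAMtools 1.16.1), and replicates had been merged. The authors then called peaks in MACS 1.4.2 with duplicate tags removed. No control is named. The study's reporting form says that the experiment was done once, so whether a list pools replicates is open. The deposited score is the authors' 10 times negative log10 p, at least 50 in each list. The deposited summit signal is tags at the highest point, not scaled to depth. Read numbers after filtering are not given in the sources used here, so depth is treated as unknown, and a deeper library gives more peaks at the same threshold. The form gives near-equal mapped read pairs for both fusions.

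Here, lists were ranked by score and merged at 1 bp of overlap. The summit of a library in a region is that of its best peak. Genes and starts came from GENCODE M21 (GRCm38, the assembly of mm10). Named genes were those nearest to the 8 best-ranked regions per class, the 6 with the largest excess of a single-library class within 50 kb, list members (by alphabet or rank, or, where the text says so, after their values were seen) and the tagged factors. A sequence is the best-ranked example by rule, with the next 2 per single-library class added after the values were seen. The members and lists were chosen with earlier results of these data known. Shares have exact (Clopper-Pearson) 95% intervals, and enrichments have intervals from match counts on the log scale. The steps were tested on simulated data. Python 3.11.15, NumPy 2.4.6, pandas 2.3.3, SciPy 1.17.1 and matplotlib 3.10.9 were used. Alternatives were a score of at least 100, other overlap rules, the best 20000 or 5000 peaks, other promoter and motif windows and another motif background. A few genes that these rules name are not reported here.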

Additional observations from a re-analysis of the deposited data

How the results depend on the processing

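Of 53 alternatives tried over 10 results, 16 left the value within its 95% counting interval and 37 moved it out. Only the NANOG and SOX motif ratios had a direction that could reverse, and neither did. Promoter shares kept the order shared, NanogBiD only, Sox2BiD only in each alternative tried for them. With scores of at least 100 in both lists, 19.4% of merged regions were shared, promoter shares were 34.9%, 18.3% and 11.6%, summit spacing was 113 bp, native Nanog had a peak in 76.2% of NanogBiD only regions, and native Sox2 in 50.4% of Sox2BiD only regions. With an overlap of at least 50% of the shorter peak these were 20.5% shared, 32.2% of shared regions at promoters and 101 bp. With summits within 100 bp as the rule for sharing they were 9.33% over all peaks and 4.67% over the best 20000, promoter shares of 34.4%, 19.9% and 14.8%, 36 bp, 65.3% and 39.4%. That rule caps the spacing at 100 bp, so the 36 bp is no separate measure of it. With the best 20000 peaks of each list, promoter shares were 32.5%, 27.3% and 11.9%, spacing 123 bp, and native shares 94.0% and 85.1%, and with the best 5000 peaks 5.45% of regions were shared. Promoters of 500 bp gave 22.9%, 7.23% and 3.45%, and starts of protein-coding genes alone 27.1%, 11.3% and 7.20%. The closest pair of summits gave 106 bp. A native summit within 100 bp was found for 43.4% of NanogBiD only and 29.1% of Sox2BiD only regions. On the log2 scale, a motif window of 100 bp to either side gave 1.42 for NANOG and 2.77 for SOX, and genome windows as background gave 3.33 for SOX.

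No paired analysis was possible because each fusion had 1 library. Differences between the fusions can therefore not be told apart from differences between 2 libraries, and intervals cover counting error only. Peaks that share a domain or a gene are not independent, so the intervals are narrower than the true error. List lengths follow read depth and signal over background as well as binding, neither of which was given after filtering, so a site in only 1 list is one that was not detected in the other.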

Other observations

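At shared promoters the factor letters were less enriched than at shared regions elsewhere: NANOG at NanogBiD summits was 1.64-fold (1.26 to 2.12) at promoters and 2.59-fold (2.28 to 2.95) away from them, and SOX at Sox2BiD summits 3.89-fold (3.28 to 4.61) and 5.12-fold (4.66 to 5.62). AP-1 followed, with 2.75-fold and 4.93-fold at NanogBiD summits. In the single-library classes the intervals overlapped: NANOG in NanogBiD only regions was 3.68-fold (2.80 to 4.83) at promoters and 3.88-fold (3.51 to 4.28) elsewhere, and SOX in Sox2BiD only regions 7.23-fold (6.28 to 8.32) and 7.01-fold (6.68 to 7.35). In shared regions that all 6 other libraries also held, the SOX letters were at 4.19% of Sox2BiD summits, against 5.58% over all shared regions, 5.55-fold (4.19 to 7.35) over the flanks and 2.41-fold over genome windows. The NANOG letters were at 1.08% of NanogBiD summits there, 2.04-fold (1.36 to 3.07) over the flanks and 1.28-fold over genome windows.

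The motif of CTCF (0.0856% of genome windows), a boundary factor that neither fusion contains, was at 0.198% of NanogBiD only and 0.192% of Sox2BiD only summits. The NR5A letters TCAAGGTCA (0.2003% of genome windows) were below their flanks in both classes, 0.541-fold (0.412 to 0.710) and 0.428-fold (0.339 to 0.540).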
